A study of Mus musculus with 22 samples.

Results

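Hoxa5, Hoxa7, Hoxa9, Hoxa10, Hoxb4, Meis1 and Pbx3 encode homeodomain transcription factors of blood stem and progenitor cells, and these 7 genes were followed through all libraries of a mouse study of Arid1a loss. They were picked by name, with earlier results of these data known, as the HOX genes of the blood lineage with the TALE partners MEIS1 and PBX3. All 7 were found among the 47311 genes of the deposited tables, in which the values of every transcript of a gene were summed. Arid1a f/f mice carry loxP sites on both sides of exon 9 of Arid1a, a subunit gene of the BAF chromatin remodeler. KO mice were Arid1a f/f;Mx1-Cre+ and WT mice were Arid1a f/f;Mx1-Cre-, so both groups had the floxed alleles on a C57BL/6 background, and both received poly(I:C), which induces interferon and through it the Mx1 promoter of the Cre transgene, in 5 doses of 300 µg at 8 to 14 weeks of age. Bone marrow populations were sorted 4 weeks after poly(I:C). Long-term hematopoietic stem cells (LT-HSC, the CD34- Flt3- part of the Lin- Sca1+ Kit+ gate) came from 2 WT and 2 KO mice (named S245 and S269 against S244 and S270) and were amplified with the SMART-Seq v4 kit. Common myeloid progenitors (CMP), granulocyte-macrophage progenitors (GMP) and megakaryocyte-erythroid progenitors (MEP) came from 3 WT mice (300, 305 and 309) and 3 KO mice (301, 304 and 308), each of which gave all 3 populations, and were prepared with the TruSeq RNA kit. Mx1-Cre is an inducible transgene that is also active outside the blood. For CMP, GMP and MEP of KO mice the paper describes deletion of the floxed exon as complete. Whether each sorted cell had lost exon 9 was not tested here.

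HOX genes lie in 4 clusters, and in blood the HoxA cluster and parts of HoxB are highest in stem cells and are switched off as cells mature. HOX proteins bind DNA weakly alone and gain specificity with TALE homeodomain partners of the PBX and MEIS families. HOXA9 with MEIS1 and PBX3 is best known from acute leukemia, where fusions of the Kmt2a (MLL) gene keep all of them on.

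Arid1a transcript abundance, in TPM (transcript abundance per length and library), was lower in every KO LT-HSC library (10.7 and 10.9) than in either WT library (23.7 and 29.9). In GMP it was 42.9 to 46.5 TPM in KO against 57.7 to 78.3 in WT, in CMP 70.8 to 80.4 against 77.5 to 84.1, and in MEP 45.7 to 52.0 against 51.5 to 53.4. Exons outside the deleted one are still counted, so this checks the label only in part. Library totals ran from 40804031 to 65930737 estimated fragments. The LT-HSC library of WT mouse S245 stood apart: Mpo, the myeloperoxidase gene, was at 2.78 TPM there against 276 to 407 TPM in the other 3 LT-HSC libraries, and Elane was at 0.799 against 216 to 378 TPM. Defining markers ordered the populations as labelled, with the summed TPM of 10 LT-HSC markers at 1042 to 1671 in LT-HSC and at or below 125 elsewhere, of 10 GMP markers at 31641 to 47545 in GMP and at or below 4936 elsewhere, and of 10 MEP markers at 3631 to 6625 in MEP against 2000 to 3887 in LT-HSC, 1451 to 1916 in CMP and 309 to 359 in GMP. Where a gene's level differs between sorted populations, fewer cells of a type and less RNA per cell cannot be told apart. CD34 is an antigen of the CMP, GMP and MEP gates, and the paper reports less surface CD34 on KO CMP and GMP. Cd34 was 140 to 221 TPM in KO GMP against 272 to 291 in WT, and 386 to 454 against 423 to 455 in CMP. Whether each gate held the same cells in both genotypes was not tested.

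4 of the members lie in the HoxA cluster on mouse chromosome 6, all on the minus strand (GRCm38): Hoxa5 at chr6:52201754-52204587, Hoxa7 at chr6:52214491-52221854, Hoxa9 at chr6:52223100-52231089 and Hoxa10 at chr6:52231197-52240854. Hoxb4 is at chr11:96318267-96321638 on the plus strand in the HoxB cluster, Meis1 at chr11:18879817-19018985 on the minus strand, and Pbx3 at chr2:34171457-34373142 on the minus strand. Start regions (250 bases before the start and 50 after it, RefSeq, GRCm38.p6) matched 6 of the 7 genes by symbol, with 2 for Hoxa10 and none for Pbx3. The 4 regions below belong to Hoxa9 and Hoxa10, neighbours that both rose in KO CMP and KO MEP, and to Meis1, which had the widest range across populations, and their capitals mark CG dinucleotides, the bases methylated in DNA and dense in CpG islands.
Hoxa9, chr6:52227321-52227620, minus strand: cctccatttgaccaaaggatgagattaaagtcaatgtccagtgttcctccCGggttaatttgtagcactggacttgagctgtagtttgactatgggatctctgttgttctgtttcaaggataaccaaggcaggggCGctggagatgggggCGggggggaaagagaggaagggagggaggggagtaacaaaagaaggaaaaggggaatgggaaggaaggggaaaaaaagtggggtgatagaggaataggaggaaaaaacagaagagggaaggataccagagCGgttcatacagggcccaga
Hoxa10, chr6:52234890-52235189, minus strand, start of transcript Hoxa10-202: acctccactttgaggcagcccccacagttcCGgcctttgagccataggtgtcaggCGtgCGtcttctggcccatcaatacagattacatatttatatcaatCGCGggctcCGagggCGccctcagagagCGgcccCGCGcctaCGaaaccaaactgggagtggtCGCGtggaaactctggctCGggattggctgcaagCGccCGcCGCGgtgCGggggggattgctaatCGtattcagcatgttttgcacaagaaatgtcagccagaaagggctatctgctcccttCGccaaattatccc
Hoxa10, chr6:52240805-52241104, minus strand, start of transcript Hoxa10-201: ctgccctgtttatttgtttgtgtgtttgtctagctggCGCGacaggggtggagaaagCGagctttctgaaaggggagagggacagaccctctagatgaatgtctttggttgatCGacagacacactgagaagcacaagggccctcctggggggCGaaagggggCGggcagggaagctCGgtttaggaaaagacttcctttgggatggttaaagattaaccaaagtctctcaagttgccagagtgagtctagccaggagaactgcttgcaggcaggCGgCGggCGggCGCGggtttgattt
Meis1, chr11:19018920-19019219, minus strand: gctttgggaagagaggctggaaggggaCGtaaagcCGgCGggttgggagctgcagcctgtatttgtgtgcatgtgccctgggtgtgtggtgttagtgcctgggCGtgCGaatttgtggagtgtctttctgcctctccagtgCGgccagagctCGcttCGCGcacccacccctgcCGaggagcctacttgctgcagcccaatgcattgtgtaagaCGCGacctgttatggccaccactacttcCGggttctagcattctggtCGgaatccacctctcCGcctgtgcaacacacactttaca
The Hoxa9 region held 4 CG dinucleotides, fewer than the median of 7 over 32851 mouse start regions. The Hoxa10-202 region held 21 and that of Hoxa10-201 held 12, while Meis1 held 15, Hoxb4 14, Hoxa7 9 and Hoxa5 29. The Hoxa7 region, chr6:52218524-52218823, lies upstream of the start of Hoxa7-201, its most abundant transcript, at 52217505 and does not cover it. Neither the MEIS core TGACAG nor the HOX-PBX composite TGATNNAT, searched on both strands, occurred in any of the 7 member regions, while 19.2% and 8.85% of all mouse start regions held them. These windows of 300 bases say nothing of sites elsewhere.

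Levels across the populations were described first, in TPM, a scale that corrects for transcript length. Meis1 had the widest range. In WT mice it stood at 214 and 161 TPM in the LT-HSC libraries, at 74.4, 62.6 and 56.8 in CMP, at 12.01, 9.98 and 11.2 in GMP, and at 6.09, 1.83 and 2.61 in MEP. These 4 sets of WT libraries did not overlap. LT-HSC libraries differ from the others in kit as well as in cell type, which cannot be told apart, so levels there are set beside the precursors without a test.

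Hoxa9 and Hoxa7 were the most abundant HOX members in all 4 populations. In WT libraries Hoxa9 was 66.2 and 46.2 TPM in LT-HSC, while the CMP libraries held 40.2, 39.7 and 34.5, the GMP libraries 33.3, 34.4 and 28.9, and the MEP libraries 19.9, 13.2 and 13.2. CMP was above GMP in each WT library, although the lowest CMP and the highest GMP value nearly met. Hoxa7 was 42.7 and 41.1 TPM in WT LT-HSC, with CMP libraries at 33.2, 31.0 and 30.5, GMP libraries at 24.0, 24.3 and 22.003 and MEP libraries at 7.85, 5.28 and 5.63, with no overlap between any of the 4.

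Hoxa10, the most 5′ member of the cluster measured here, had an order of its own. In WT libraries it was 24.6 and 14.6 TPM in LT-HSC, 4.51, 5.33 and 3.42 in CMP, 1.59, 1.15 and 0.767 in MEP, and 1.09, 0.979 and 0.434 in GMP. MEP and GMP overlapped, and LT-HSC and CMP stood above both. Hoxa5 was lower than Hoxa9 throughout: 8.36 and 5.07 TPM in LT-HSC, 3.76 to 5.35 in CMP, 1.86 to 2.81 in GMP and 0.776 to 1.05 in MEP of WT mice.

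Pbx3 was highest in LT-HSC (19.9 and 18.6 TPM), lowest in GMP (3.09 to 3.62) and similar in WT CMP (5.41 to 7.30) and WT MEP (4.90 to 6.41), whose ranges overlapped. Hoxb4 was, unlike the other members, lowest in LT-HSC: it was at 1.11 and 0.507 TPM in WT LT-HSC, at 3.91 to 4.78 in CMP, at 4.04 to 4.67 in GMP and at 1.04 to 1.62 in MEP. Its 4 LT-HSC libraries held 33.0 to 87.8 estimated fragments of Hoxb4. Hoxb4 is known for the expansion of blood stem cells when it is supplied in excess.

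**Figure D1:**
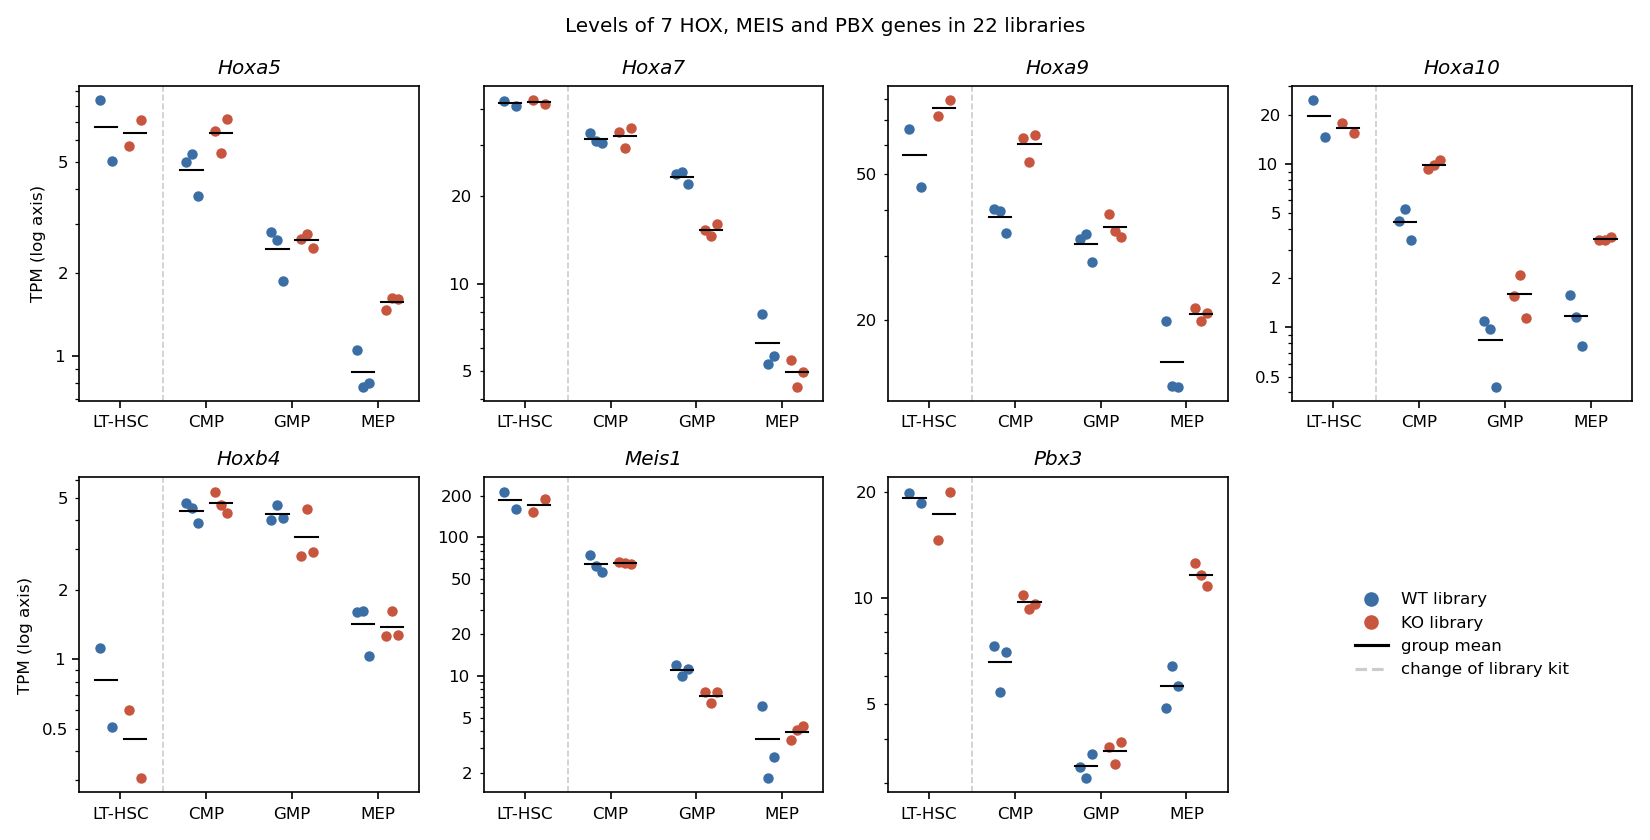
TPM (log axis, a separate scale in each panel) of the 7 genes in each of the 22 libraries, with WT in blue, KO in red and group means as black bars. Meis1 spans from 214 TPM in an LT-HSC library to 1.83 in an MEP library, Hoxb4 is lowest in LT-HSC, and Hoxa10 and Pbx3 of KO lie above WT in CMP, and in MEP by a wide gap.

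Among WT precursors, with the mouse as a block in edgeR's quasi-likelihood test and Benjamini-Hochberg adjustment over all genes, 6 of 7 members were lower in GMP than in CMP at an adjusted p under 0.1, against 24.2% of the 17476 genes tested that were lower and 45.3% that passed in either direction. Hoxa10 was lower by the most (log2 fold change -2.38, SE 0.24, adjusted p = 7.78e-05), followed by Meis1 (-2.26, SE 0.21, adjusted p = 5.07e-05). Pbx3 (-0.80, SE 0.14) and Hoxa5 (-0.80, SE 0.15) came next with Hoxa9 (-0.33, SE 0.11, adjusted p = 0.0385) and Hoxa7 (-0.28, SE 0.11, adjusted p = 0.0769) last. The last pair rested on the processing: Hoxa7 missed the threshold in 4 of 7 other settings, with adjusted p up to 0.214, and Hoxa9 missed it with an offset for transcript length (-0.10, adjusted p = 0.583) and without mouse 309. Hoxb4 was level between them (0.12, SE 0.14, adjusted p = 0.55).

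Between MEP and CMP of WT mice, 6 of 7 were lower in MEP, against 38.0% of genes lower and 72.4% passing in either direction. Meis1 fell by 4.06 (SE 0.23, adjusted p = 8.83e-07), the largest difference among the members, ahead of Hoxa7 (-2.32, SE 0.12), Hoxa5 (-2.10, SE 0.17), Hoxa10 (-1.68, SE 0.23), Hoxb4 (-1.32, SE 0.15) and Hoxa9 (-1.24, SE 0.11). Pbx3 did not differ beyond its error (0.09, SE 0.14, adjusted p = 0.611). With GMP set against MEP, 5 were higher in GMP and 2 lower, against 36.5% of genes higher, 36.1% lower and 72.6% passing in all. Hoxa7 (2.04, SE 0.12), Meis1 (1.80, SE 0.22), Hoxb4 (1.45, SE 0.15), Hoxa5 (1.30, SE 0.17) and Hoxa9 (0.91, SE 0.11) were higher in GMP. Pbx3 (-0.89, SE 0.15, adjusted p = 0.000553) and Hoxa10 (-0.70, SE 0.25, adjusted p = 0.0316) were higher in MEP, Hoxa10 not so with protein-coding transcripts alone (-0.41, adjusted p = 0.621), without the mouse block (adjusted p = 0.149) or without mouse 300 or 309.

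In WT precursors the rest of the HOX clusters was low, at most 3.67 TPM for any gene in any library (Hoxb3 in CMP). In WT LT-HSC, Hoxb2 and Hoxb5 had higher mean TPM (13.5 and 8.70) than the members Hoxa5 and Hoxb4 (6.72 and 0.810). Of 39 Hox genes, 14 averaged at least 1 TPM in WT LT-HSC, 10 in WT CMP, 7 in WT GMP and 5 in WT MEP. The 11 HoxA genes summed to 119 to 157 TPM in WT LT-HSC, 80.0 to 91.1 in CMP, 56.6 to 67.5 in GMP and 23.7 to 34.2 in MEP, and the 10 HoxB genes to 25.7 to 31.4, 6.98 to 11.2, 6.27 to 9.27 and 1.92 to 3.55 TPM. The 9 HoxC genes summed to 5.53 to 8.56 TPM in WT LT-HSC and to at most 0.636 in any WT precursor library. The HoxD genes summed to at most 0.900 TPM in any WT library. Within HoxB, Hoxb2 (12.5 and 14.50 TPM in WT) and Hoxb5 (6.999 and 10.4) led in LT-HSC, whereas in CMP and GMP Hoxb4 and Hoxb3 led.

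**Figure D2:**
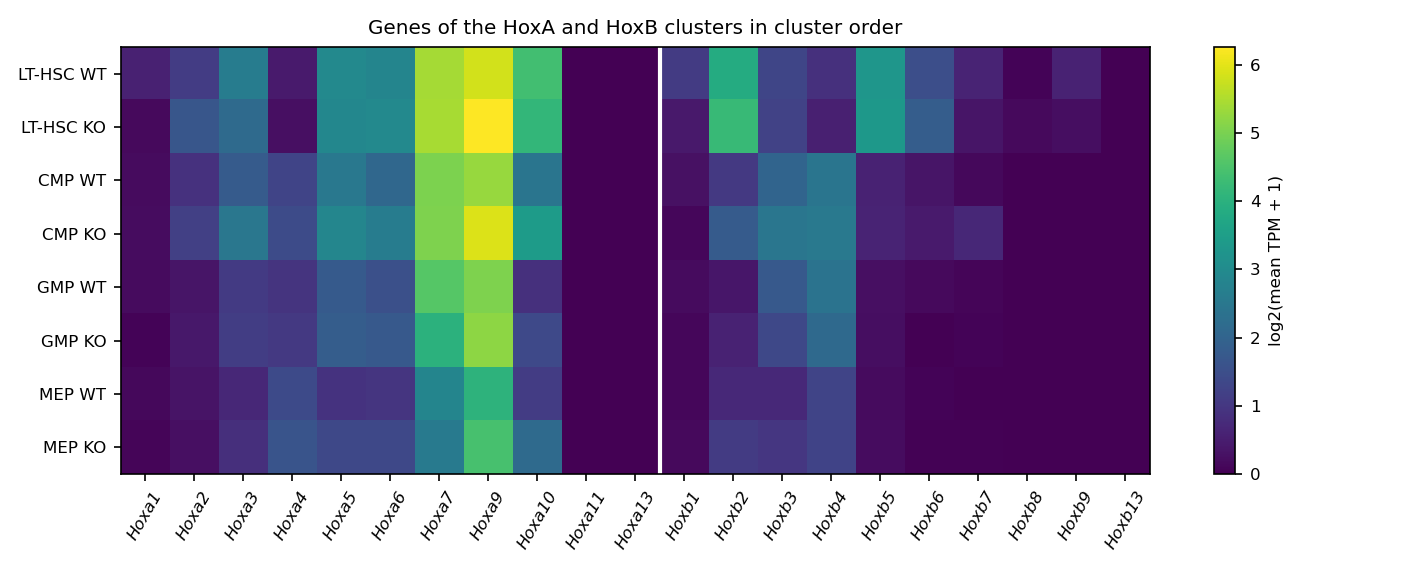
Group means of the HoxA (left) and HoxB (right) genes in cluster order, as log2(mean TPM + 1), with 1 line of cells for each population and genotype. Hoxa7 and Hoxa9 are the brightest in every population, genes 5′ of Hoxa10 are dark, and Hoxb2 and Hoxb5 are bright in LT-HSC, where Hoxb4 is dark.

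In LT-HSC no member passed the test between KO and WT, by edgeR or DESeq2, and none had an unadjusted p under 0.05 by edgeR, while 18 of 22733 genes passed by edgeR (0.0792%). With 2 libraries a group this comparison could show little: values between genotypes are given as CPM, the library-size-scaled count, with TMM factors set within the population. Hoxa9 had the smallest p among the members, at 72.9 and 86.8 CPM in KO against 60.7 and 51.0 in WT, without overlap (log2 fold change 0.52, SE 0.28, unadjusted p = 0.0891, adjusted p = 0.876). Hoxa7 did not overlap either, at 34.3 and 33.9 CPM in KO against 26.2 and 30.2 in WT (0.27, SE 0.30, adjusted p = 0.879), but in TPM it did. At 2 against 2 libraries the smallest p that a 2-sided exact permutation test can give is 0.333, and 0.1 at 3 against 3. Lack of overlap alone therefore shows little, and the share of all genes without overlap was not computed. Meis1, at 343 and 488 CPM in KO against 408 and 366 in WT, overlapped widely (0.10, SE 0.35, adjusted p = 0.954).

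The other 4 members overlapped too, with log2 fold changes of 0.21 (SE 0.55) for Hoxa5, 0.07 (SE 0.32) for Hoxa10, 0.02 (SE 0.34) for Pbx3 and -0.56 (SE 1.26) for Hoxb4. Over all genes tested the median log2 fold change was -0.16, so a member at 0 sat slightly above the typical gene. Summed LT-HSC markers were 1042 to 1049 TPM in KO against 1278 to 1671 in WT. MEP markers were 2000 to 2144 against 2278 to 3887 TPM, and dendritic cell markers 380 to 836 against 886 to 1659 TPM. No gene of these lists passed. The sums of GMP, megakaryocyte, and basophil and mast cell markers overlapped. The part of cell types in these values was not tested. Without the WT library S245 that stood apart, 562 genes passed but no member did.

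In CMP, 3 of 7 members rose in KO and none fell, where 10.6% of 17214 genes rose and 23.4% passed in either direction. They were Hoxa10, Hoxa9 and Pbx3, with a median over the 7 members of 0.33 on the log2 scale beside 0.00 over all genes tested. Hoxa10 was 10.9, 11.5 and 12.3 CPM in KO against 5.46, 6.64 and 4.16 in WT. All KO libraries lay above all WT libraries, by a log2 fold change of 1.09 (SE 0.17, adjusted p = 0.00274).

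Hoxa9, the HOX gene most often tied to myeloid leukemia, was 62.9, 54.3 and 66.2 CPM in KO against 45.8, 47.5 and 40.4 in WT. The groups did not overlap, at a log2 fold change of 0.45 (SE 0.09, adjusted p = 0.00967). As a ratio of mean TPM the difference was 0.66 on the log2 scale, where the median gene shifted by 0.10. Pbx3, which partners HOXA9, was 13.6, 14.3 and 13.5 CPM in KO against 10.7, 8.40 and 11.4 in WT, again without overlap (0.44, SE 0.13, adjusted p = 0.043). Its call was lost without KO mouse 301 (adjusted p = 0.117) or 304 (adjusted p = 0.101).

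Hoxa5 stood at 7.40, 6.30 and 8.38 CPM in KO against 6.08, 6.64 and 4.75 in WT CMP and overlapped (0.33, SE 0.17, adjusted p = 0.236). The remaining members were close to 0 with small errors: Hoxa7 at -0.08 (SE 0.08), Hoxb4 at 0.01 (SE 0.13) and Meis1 at -0.06 (SE 0.08). Meis1 in CMP was 126, 124 and 125 CPM in KO against 148, 122 and 120 in WT. Of the other Hoxa genes Hoxa3 (0.79, SE 0.14, adjusted p = 0.00523) and Hoxa6 (0.58, SE 0.18, adjusted p = 0.0592) rose, 2 of the 5 tested. Of the 5 other Hoxb genes tested 1 fell, Hoxb1, and of the 2 Hoxc genes tested 1 rose, Hoxc6, both below 1 TPM.

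The cell type markers moved in CMP too. The summed GMP markers were 1836 to 2819 TPM in KO against 4067 to 4936 in WT, with 5 of 10 lower and none higher, among them Mpo, Elane and Ctsg. MEP markers were 1662 to 1916 against 1451 to 1568 TPM (4 of 10 higher), LT-HSC markers 115 to 125 against 83.1 to 109 TPM (3 higher, 3 lower), megakaryocyte markers 609 to 635 against 789 to 1160 TPM (1 higher, 6 lower of 8), and basophil and mast cell markers 263 to 270 against 374 to 582 TPM (1 higher, 6 lower of 8). Dendritic cell markers were 326 to 395 against 230 to 303 TPM (2 higher, 2 lower of 8). Much of that sum was Flt3, also a gene of progenitors, at 129 to 195 TPM in KO against 72.5 to 88.8 in WT. Zbtb46 was the other higher gene, and Cd74 and H2-Aa were lower. None of these lists had a member at 0 in all libraries of a group. Their part in the rise of Hoxa10, Hoxa9 and Pbx3 was not tested.

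In GMP, 4 of 7 members passed, 2 up and 2 down, where 17.5% of 16383 genes rose, 16.3% fell and 33.9% passed in all. Meis1 was 17.0, 16.1 and 17.1 CPM in KO against 25.3, 21.0 and 24.3 in WT. Every KO library was below every WT library, and Meis1 fell by 0.49 on the log2 scale (SE 0.09, adjusted p = 0.00276). Fitted with all 18 precursor libraries its adjusted p was 0.143.

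Hoxa7 was 17.2, 17.1 and 18.2 CPM in KO GMP against 23.1, 23.7 and 21.9 in WT, without overlap (log2 fold change -0.39, SE 0.07, adjusted p = 0.00356). As a ratio of mean TPM the fall was larger, -0.61, where the median gene was at -0.16. Hoxa10, of the same cluster, went the other way, at 1.99, 2.85 and 1.59 CPM in KO against 1.12, 1.22 and 0.485 in WT. These groups did not overlap either (1.18, SE 0.36, adjusted p = 0.0402), although the counts were small, 26.0 to 143 estimated fragments a library, and the call was lost without KO mouse 304 (adjusted p = 0.13) or WT mouse 309 (adjusted p = 0.103).

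Hoxa9, which lies between Hoxa7 and Hoxa10 on the chromosome, was 37.5, 38.3 and 34.1 CPM in KO GMP against 32.8, 34.0 and 26.0 in WT. The lowest KO and the highest WT library were almost level, and the difference of 0.24 (SE 0.10) missed the threshold (adjusted p = 0.121). It passed with WT and KO mice paired as a replicate block (0.25, adjusted p = 0.0161) and with the offset for transcript length (0.29, adjusted p = 0.0265). Pbx3, at 6.65, 6.29 and 6.84 CPM against 5.33, 4.35 and 5.504, rose by 0.38 (SE 0.14, adjusted p = 0.0728) but missed the threshold in 5 of the 6 fits that left out 1 library (adjusted p = 0.107 to 0.181) and with the length offset (adjusted p = 0.215). Hoxa5 (0.27, SE 0.19, adjusted p = 0.355) and Hoxb4 (-0.16, SE 0.20, adjusted p = 0.619) did not pass. Hoxb4 passed without KO mouse 304 (-0.45, adjusted p = 0.0584).

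In GMP the summed GMP markers were 42148 to 47545 TPM in KO against 31641 to 37210 in WT (8 of 10 higher, 1 lower). LT-HSC markers were 8.85 to 9.71 against 14.3 to 15.1 TPM (1 higher, 5 lower of 10, among the latter Hlf and Procr), basophil and mast cell markers 337 to 404 against 1067 to 1564 TPM (6 of 8 lower) and megakaryocyte markers 76.8 to 98.1 against 112 to 236 TPM (1 higher, 3 lower of 8). MEP markers were 309 to 325 against 321 to 359 TPM (1 higher, 6 lower of 10) and dendritic cell markers 105 to 124 against 143 to 176 TPM (3 of 8 lower). None of the other Hoxa genes (4 tested) or Hoxb genes (3 tested) passed. Whether these cell types bear on the fall of Meis1 and Hoxa7 was not tested.

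In MEP, 4 of 7 members rose and none fell, where 14% of 15777 genes rose and 29.4% passed in either direction. The median over the 7 members was 0.53 beside 0.00 over all genes. Pbx3 was 18.9, 17.7 and 19.5 CPM in KO against 8.09, 10.2 and 9.47 in WT. All KO libraries lay above all WT libraries (log2 fold change 1.02, SE 0.11, adjusted p = 0.000428), and the difference stayed between 0.93 and 1.09 whichever library was left out.

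Hoxa10 was 4.20, 4.41 and 4.22 CPM in KO MEP against 2.15, 1.46 and 0.887 in WT. Its KO libraries were tightly grouped and all above WT (1.499, SE 0.29, adjusted p = 0.00794). Hoxa5, at 1.88, 2.07 and 2.20 CPM against 1.39, 1.04 and 1.08, did not overlap either (0.81, SE 0.21, adjusted p = 0.0266), on 44.0 to 124 estimated fragments a library.

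Hoxa9 was 24.3, 23.0 and 23.4 CPM in KO MEP against 19.2, 14.1 and 15.8 in WT, without overlap (0.53, SE 0.11, adjusted p = 0.0118), although in TPM WT mouse 300 reached the KO range (19.9 against 19.9 to 21.6 in KO). The call was lost with the length offset (0.41, adjusted p = 0.111). Hoxa7 (-0.26, SE 0.17, adjusted p = 0.342) and Hoxb4 (-0.06, SE 0.22, adjusted p = 0.879) overlapped between the groups.

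Meis1 in MEP was 6.97, 9.33 and 9.49 CPM in KO against 11.3, 3.91 and 5.88 in WT. WT mouse 300 stood above every KO library and the other 2 WT libraries below them, so the difference (0.28, SE 0.34, adjusted p = 0.619) rested on that library: without it Meis1 was higher in KO by 0.81 (adjusted p = 0.0542). The same library held the highest LT-HSC marker sum of the WT MEP, 9.92 TPM against 2.97 and 4.10, with 13.2 to 15.03 in KO. The higher sum in KO was not shared by all genes of the list. Hlf was at 1.95 to 2.28 TPM in KO MEP against 0.417 to 2.58 in WT. Procr, Ly6a, Mecom and Hoxb5 overlapped between the genotypes as well. Cd34, an antigen that MEP are sorted to lack, was at 10.9 TPM in the library of WT mouse 300 against 0.742 and 3.59 in the other WT MEP. KO MEP libraries held 3.32 to 5.70 TPM of Cd34. MEP markers were 3631 to 4261 TPM in KO against 5294 to 6625 in WT (3 of 10 higher, 2 lower), megakaryocyte markers 73.3 to 98.7 against 26.0 to 49.0 TPM (4 of 8 higher), and basophil and mast cell markers 16.7 to 22.4 against 63.9 to 80.2 TPM (4 of 6 tested lower). Dendritic cell markers were 152 to 168 against 124 to 147 TPM (1 higher, 3 lower of 8). Their part in the rise of the 4 members was not tested. Without mouse 300 all 4 still passed.

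**Figure D3:**
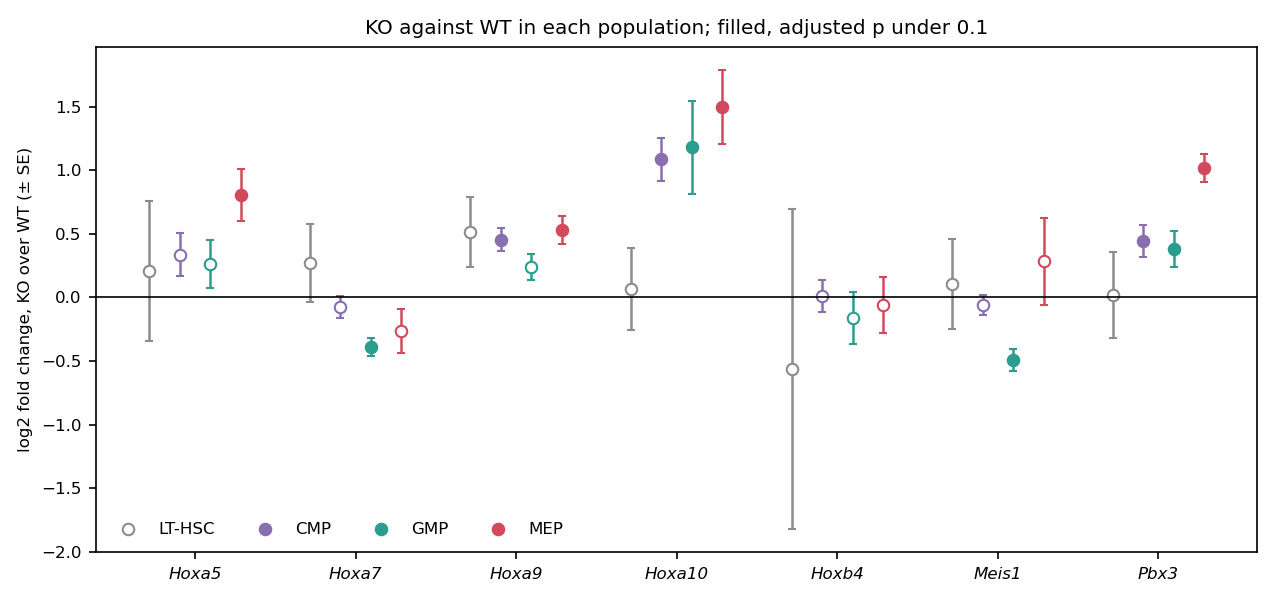
Log2 fold changes of KO over WT (± SE) of the 7 genes in LT-HSC, CMP, GMP and MEP, filled where the adjusted p was under 0.1. Hoxa10 is filled at 1.09, 1.18 and 1.499 in the 3 precursor populations, Pbx3 is highest in MEP, Hoxa7 and Meis1 are filled below 0 in GMP alone, and nothing is filled in LT-HSC.

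**Figure D4:**
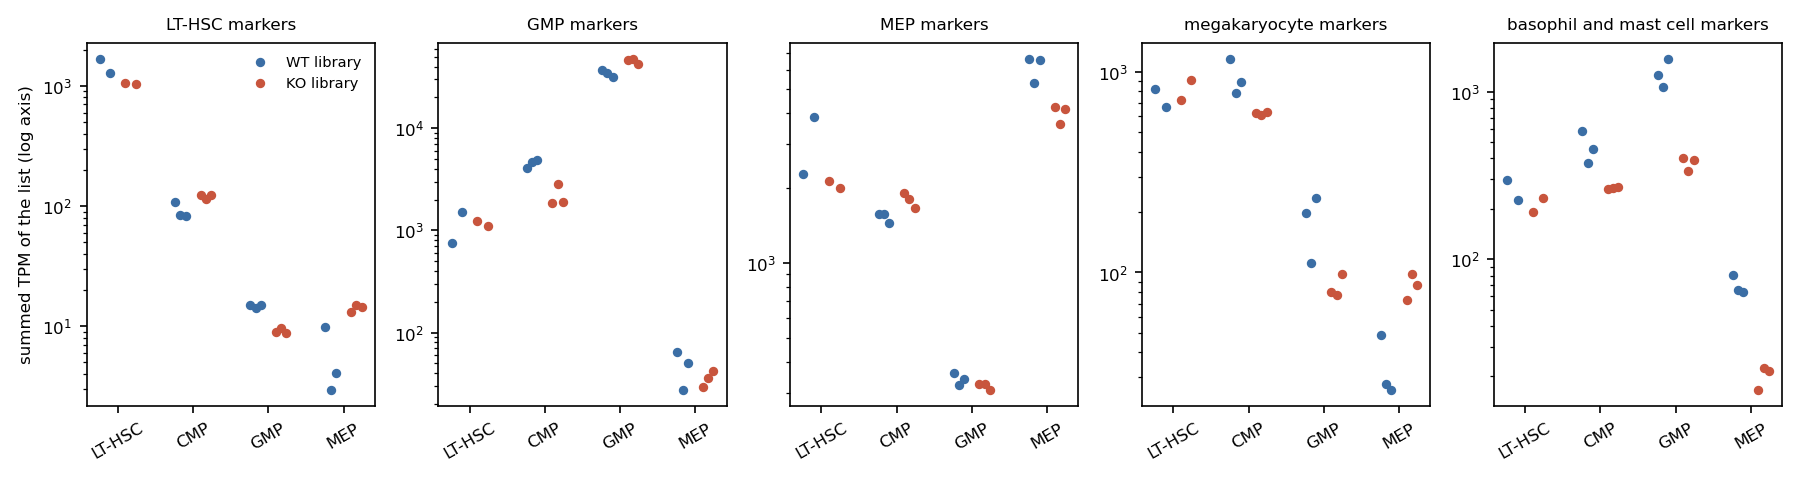
Summed TPM (log axis, a separate scale in each panel) of 5 marker lists in each library, WT in blue and KO in red. GMP markers are lower in KO CMP and higher in KO GMP, LT-HSC markers are lower in KO GMP and higher in KO MEP, and basophil and mast cell markers are lower in KO in all 3 precursor populations.

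Whether the genotype effect differed between populations was tested by the interaction of genotype and population, in 1 model of the 18 precursor libraries blocked by mouse, for 18523 genes. Pbx3 rose more in MEP than in CMP (difference in log2 fold change 0.56, SE 0.16, adjusted p = 0.0419), the only member to pass, where 13% of genes did. It passed in 2 of the 6 fits that left out 1 mouse, missing the threshold without mouse 300, 301, 308 or 309 (adjusted p = 0.157 to 0.208), and without mouse 300 Meis1 passed (0.78, adjusted p = 0.0215). Between GMP and MEP, where 26.8% of genes passed, 2 members did: Pbx3 rose less in GMP (-0.62, SE 0.16, adjusted p = 0.016) and the log2 fold change of Meis1, which fell in GMP and was 0.28 without passing in MEP, was lower there (-0.82, SE 0.27, adjusted p = 0.045). Between GMP and CMP no member passed in edgeR, where 21.0% of genes did, and none in DESeq2. Hoxa7 alone had an unadjusted p under 0.05 (-0.31, SE 0.13, adjusted p = 0.148), and no other setting but the one without mouse 300 called a member, where Hoxa7 (-0.33, adjusted p = 0.0864) and Meis1 (-0.48, adjusted p = 0.077) passed. The effect on Hoxa10 did not differ detectably between populations, at 0.13 (SE 0.29) for GMP against CMP, 0.44 (SE 0.29) for MEP against CMP and -0.31 (SE 0.31) for GMP against MEP.

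Transcripts of Hoxa10 need care. Hoxa10-202 is a protein-coding transcript, and Hoxa10-203 is annotated as a processed transcript with no coding sequence that shares its last exon and starts in its intron, at the first exon chr6:52233197-52233324 (GENCODE vM21, GRCm38, minus strand). That exon, of 128 bases, is what sets Hoxa10-203 apart:
Hoxa10-203 first exon: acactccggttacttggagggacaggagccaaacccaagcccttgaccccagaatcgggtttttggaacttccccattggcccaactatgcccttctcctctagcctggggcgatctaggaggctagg
In CMP, Hoxa10-203 took 61.3 to 62.7% of the gene's estimated fragments in WT and 51.1 to 66.9% in KO, and in MEP 50.02 to 74.7% and 57.2 to 73.7%. In GMP the spread was widest, at 28.2 to 100% in WT and 31.7 to 65.6% in KO, so that all Hoxa10 fragments of 1 WT GMP library were assigned to Hoxa10-203. In LT-HSC it took 6.38 to 18.1% over both genotypes, and Hoxa10-202 took 73.7 to 83.1%, with the kit and the cell type again not separable. With protein-coding transcripts alone the log2 fold change of Hoxa10 stayed positive in the precursors, at 1.28 in CMP (adjusted p = 0.00756), 1.36 in GMP (adjusted p = 0.222) and 1.23 in MEP (adjusted p = 0.184). The split between these transcripts is kallisto's estimate.

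Noncoding transcripts took part of other members too. Of Hoxa9, the processed transcript Hoxa9-203 took 7.73 to 14.3% on group average and the retained intron Hoxa9-205 up to 17.2%, in WT LT-HSC. The processed transcript Meis1-203 took up to 29.98% of Meis1 and Hoxa7-205, a transcript annotated for nonsense-mediated decay, up to 26.4% of Hoxa7, both in WT MEP. Hoxa5 and Hoxb4 each had 1 transcript in the files, and Hoxa7-201 took 50.3 to 77.8% of Hoxa7 on group average. Meis1-201 took 37.0 to 62.9% and Pbx3-201 took 52.4 to 64.3% of their genes. Hoxa5 overlaps the annotated spans of Hoxa3, Gm28308 and the antisense gene Hoxaas3, Hoxa7 overlaps Hoxaas3, and Meis1 contains the antisense genes Gm16140 and Gm16141. The sources used here do not say whether strand was used, so fragments of such overlapping genes may be shared between them. Hoxa3 rose in CMP, as above, and in MEP (0.84, SE 0.28, adjusted p = 0.0651), where Hoxa5 rose too.

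Of the 9 other TALE genes, 5 of the 8 tested passed in CMP, 4 of 7 in GMP and 2 of 7 in MEP, where 23.4%, 33.9% and 29.4% of all genes did, with list medians of -0.01, -0.08 and -0.15 beside 0.00, -0.01 and 0.00 over all genes tested. Pbx4 rose in CMP (16.5 to 26.5 CPM against 9.81 to 17.4, 0.78, SE 0.24, adjusted p = 0.0553), with overlapping ranges. Tgif1, a TALE repressor, fell in GMP (30.9 to 35.7 CPM against 48.0 to 56.0, -0.62, SE 0.08, adjusted p = 0.000643), in MEP (-0.43, SE 0.11, adjusted p = 0.0253) and in CMP (-0.24, SE 0.09, adjusted p = 0.0957), and Tgif2 also fell in all 3, by 0.26, 0.31 and 0.58 on the log2 scale. Meis3 (CMP, 1.31, SE 0.28) and Pbx2 (GMP, 0.30, SE 0.06) also rose.

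Over all genes tested, 23.4% passed in CMP, 33.9% in GMP and 29.4% in MEP, against which the counts of the lists were read. Of 16 tested genes whose products activate HOX genes, 1 rose and 1 fell in CMP, 4 rose and 1 fell in GMP, and 4 rose and 3 fell in MEP, with medians of 0.02, 0.08 and 0.04 beside 0.00, -0.01 and 0.00 over all genes. These counts were near or below the shares over all genes except in MEP. Mllt3 (AF9), a reader of acetylated histones that MLL fusions join to, rose in CMP (49.7 to 61.0 CPM in KO against 26.0 to 31.8 in WT, 0.91, SE 0.10, adjusted p = 0.000501) and in MEP (122 to 128 CPM against 75.9 to 83.9, 0.64, SE 0.05, adjusted p = 0.000137), and fell in GMP (7.82 to 9.04 against 9.78 to 13.96 CPM, -0.50, SE 0.14, adjusted p = 0.0293). Men1, which encodes the MLL cofactor menin, fell in CMP (-0.17, SE 0.06) and MEP (-0.34, SE 0.06). Aff1, another MLL fusion partner, rose in GMP (0.39, SE 0.09) and MEP (0.29, SE 0.08), and Dpy30 of the MLL complex rose in GMP (0.30, SE 0.08).

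Of 16 repressors of HOX genes, mostly Polycomb genes, 3 rose in CMP and none fell, 1 rose and 4 fell in GMP, and 5 rose and 1 fell in MEP, with medians of 0.06, 0.03 and 0.05. In CMP and GMP these counts were near the 23.4% and 33.9% of all genes that passed, and in MEP 29.4% of all genes did. Bmi1, a core gene of Polycomb repressive complex 1, rose in CMP (90.8 to 100.01 CPM against 75.2 to 78.5, 0.32, SE 0.06, adjusted p = 0.00434) and MEP (0.40, SE 0.08, adjusted p = 0.00972). Cbx7, a chromodomain subunit of that complex in stem cells, rose in both as well (0.52, SE 0.11, and 0.31, SE 0.10). In GMP its relative Cbx2 fell (5.91 to 6.80 CPM against 10.04 to 12.7, -0.88, SE 0.13, adjusted p = 0.000936), with Cbx8 (-0.31, SE 0.10) and Rnf2 (-0.25, SE 0.09). Phc1 rose in CMP (0.19, SE 0.06) and fell in MEP (-0.26, SE 0.10, adjusted p = 0.096), and Asxl1 rose in MEP (0.37, SE 0.07).

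Genes described as targets of HOXA9 and MEIS1 (18 tested) were split: 3 rose and 4 fell in CMP, 5 rose and 8 fell in GMP, and 3 rose and 2 fell in MEP, with medians of 0.03, -0.11 and -0.01, where 23.4%, 33.9% and 29.4% of all genes passed. The MEP count was near that share. Pim1, a survival kinase, rose in all 3, at 186 to 233 CPM in KO against 112 to 154 in WT in CMP (0.75, SE 0.13), 97.5 to 149 against 45.9 to 72.9 in GMP (1.10, SE 0.20) and 43.2 to 66.6 against 24.0 to 27.1 in MEP (0.99, SE 0.16). Flt3, the receptor of FLT3 ligand, rose in CMP (309 to 469 CPM against 182 to 230, 0.94, SE 0.15, adjusted p = 0.00284) with Trib2 (0.73, SE 0.06). In GMP, Camk2d (3.06 to 3.10 CPM against 8.77 to 9.23, -1.54, SE 0.12, adjusted p = 3.31e-05) and Mef2c (-0.73, SE 0.12) had the lowest fold changes among those that fell. Whether any of these changes followed from the levels of Hoxa9 or Meis1 was not tested. In MEP Lmo2 rose (0.45, SE 0.05) and Myc fell (-0.43, SE 0.07). No gene of the TALE, activator, repressor or target lists passed in LT-HSC. Of these target genes 15 of 18 were lower and 2 higher in WT MEP than in WT CMP, where 38.0% of all genes were lower and 72.4% passed. In WT GMP 11 were lower and 3 higher, where 24.2% of all genes were lower and 45.3% passed.

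**Figure D5:**
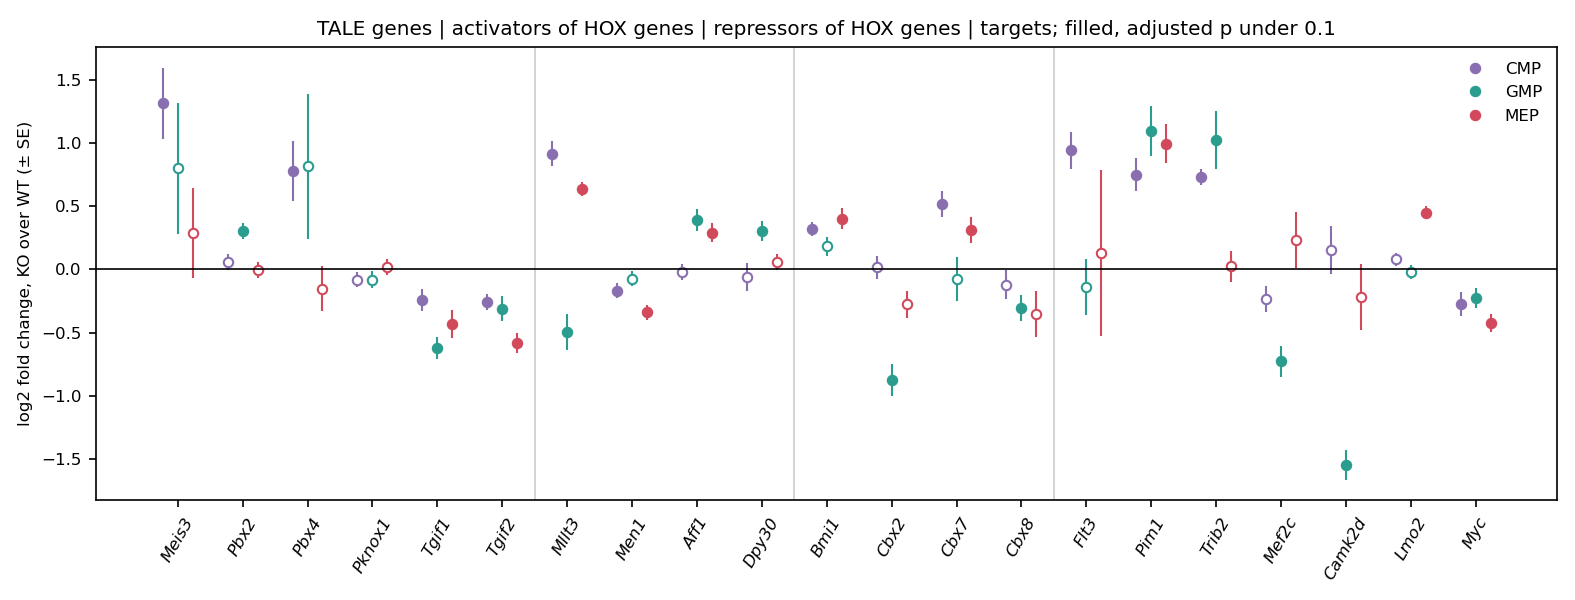
Log2 fold changes of KO over WT (± SE) in CMP, GMP and MEP for TALE genes, activators and repressors of HOX genes, and targets of HOXA9 and MEIS1, filled where the adjusted p was under 0.1. Mllt3 is above 0 in CMP and MEP and below in GMP, Tgif1, Tgif2 and Myc are below 0 in all 3, and Pim1 is above 0 in all 3.

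Over the 18 precursor libraries the genes most like each member, by Pearson's r of log2(CPM + 1) among 13766 genes with a mean of at least 1 TPM, were as follows. Hoxa5 and Hoxa9 were closest to each other (r = 0.978), followed by Serpina3g (0.970) and Trim30d (0.967) for Hoxa5 and by Trim30d (0.977) and Smim3 (0.965) for Hoxa9. Meis1 was closest to Hlf (0.992), a stem cell transcription factor, Hacd4 (0.990) and Ctso (0.989). Hoxa7 was closest to Gpsm1 (0.996), Calhm2 (0.995) and Cd27 (0.994), Hoxb4 to Arhgef11 (0.963), Jrkl (0.961) and Kantr (0.959), Pbx3 to Tbl1x (0.973), Diaph3 (0.971) and Tfdp2 (0.962), and Hoxa10 to Prx (0.949), Zfyve1 (0.943) and Gm20559 (0.939). The points share mice and fall into 3 populations and 2 genotypes, and no value within a population was computed. Between members, r was 0.845 for Hoxa7 with Hoxa9, 0.851 for Meis1 with Hoxa9, 0.633 for Hoxa10 with Hoxa9 and -0.14 for Pbx3 with Hoxa9.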

How the data were processed

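RNA of sorted bone marrow populations was sequenced as 100 bp paired ends. Per the labels and the study's methods, the authors pseudo-aligned reads with kallisto to GRCm38 transcripts of Ensembl release 84 and deposited 1 table per library. The estimated counts deposited by the authors are fragments assigned to each transcript, not normalized, and the TPM values deposited by the authors are those estimates scaled by effective length and library total. The 22 tables held 115088 transcripts, of which 114200 (99.2%) matched GENCODE vM21 and carried at least 99.6% of the counts of every library. Strandedness of the counting is not given in the sources used here.

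Transcripts were summed per gene, and estimated counts were rounded. edgeR 4.0.16 (R 4.3.3) was run with TMM factors, filterByExpr, a quasi-likelihood test and Benjamini-Hochberg adjustment over all genes tested, with a threshold of 0.1. KO was compared with WT within each population. WT populations and the interactions of genotype with population were fitted over 9 and 18 precursor libraries, blocked by mouse. Mice are separate animals. Populations of 1 mouse deviated together, with r of -0.0147 to 0.535 and 17 of 18 pairs over 0.1. WT and KO mice paired by the column order of the study's supplementary tables gave r of 0.309 to 0.452 in CMP, 0.396 to 0.5 in GMP and -0.0384 to 0.436 in MEP. In LT-HSC r was 0.281 for both pairs. Deviations from a mean of 2 libraries mirror each other, so both pairs must give the same r and it shows little. Whether a shared animal or shared handling lies behind these values was not tested. The main fits of KO against WT did not use these pairs. Each result was recomputed with DESeq2 1.42.0, with size factors by median of ratios, without the filter on low counts, with an offset for transcript length, with protein-coding transcripts alone, with the replicate block added or dropped, in 1 fit of all precursor libraries, and with each library or mouse left out. A ratio of group mean TPM was added after the data were seen. Scripts were tested on simulated data.

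The members and lists were chosen with earlier results of these data known. Up to 3 genes per list and comparison were named, those with the largest absolute log2 fold change among genes past the threshold with a mean of at least 1 TPM. Hoxb1, Hoxc6, Meis3, Myc, Tgif1, Tgif2, Pim1, Hoxb2, Hoxb3 and Hoxb5 were, in part, named after their values were seen. 1 gene of the lists is not reported here. The 7 start regions come from RefSeq tables of GRCm38.p6.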

Additional observations from a re-analysis of the deposited data

Results flagged for a closer look

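For 2 genes the effect of the genotype differed between populations by the test of that difference. The log2 fold change of Pbx3 was higher in MEP than in CMP by 0.56, and its effect in GMP minus that in MEP was -0.62. The effect on Meis1 in GMP minus that in MEP was -0.82. The Pbx3 difference between MEP and CMP missed the threshold without mouse 300, 301, 308 or 309 (0.43 to 0.54, adjusted p = 0.157 to 0.208). That of Meis1 missed it with the length offset, without the mouse block and without mouse 304, 308 or 309. All 3 differences draw on the same 18 libraries, and the pairs of populations share mice.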

How the results depend on the processing

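Of 462 values of the members under other settings, 441 kept their direction and side of the threshold, 14 lost the call, 2 gained it and 5 changed sign. Of 343 values with 1 library or mouse left out, 291 kept both, 21 lost the call, 6 gained it and 25 changed sign. No value that changed sign was past the threshold before or after. The ratio of group mean TPM moved 28 of 70 values by at least the standard error of the edgeR log2 fold change. The replicate block of WT and KO mice called Hoxa9 in GMP (0.25) and changed no other call of a member between genotypes. The cause of these shifts was not tested.

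In LT-HSC 18 genes passed, with 286 without a filter, 204 by DESeq2, 115 with the replicate block and 50 to 2516 with 1 library left out, lowest without KO S270 and highest without WT S269. Members called in GMP ran from 2 (without WT 309) to 4, against 4 with all libraries. All genes called in MEP ran from 3040 (without KO 301) to 5357, against 4638 in the main fit. All genes called between WT GMP and WT CMP ran from 5253 (without mouse 309) to 8105, against 7913 in the main fit. For the genotype effect in GMP against CMP, members called ran from 0 to 2 (without mouse 300). All genes called there ran from 2577 (without 309) to 3636, against 3887 in the main fit. In MEP against CMP, members ran from 0 (without 301, 308 or 309) to 1. All genes ran from 1464 (without 309) to 2638, against 2416 in the main fit. In GMP against MEP the length offset, the fit without the replicate block and those without 304, 308 or 309 left 1 member called.

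With protein-coding transcripts alone the LT-HSC log2 fold changes were -0.0935 for Hoxa10, -0.0692 for Meis1 and -0.0846 for Pbx3, and the Hoxa10 genotype effect in GMP against MEP was 0.22. With the length offset Hoxa9 was -0.14 in MEP against CMP. With 1 library left out in LT-HSC, Hoxa5 ran from -0.0249 to 0.45, Hoxa10 from -0.16 to 0.31, Meis1 from -0.14 to 0.36 and Pbx3 from -0.17 to 0.23. In CMP Hoxb4 ran from -0.0578 to 0.0713 and Meis1 from -0.12 to 0.0399. In MEP Hoxb4 ran from -0.23 to 0.0353 and Meis1 from -0.0075 to 0.81. Between WT MEP and WT CMP Pbx3 ran from -0.14 to 0.22.

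Of the genotype effects in GMP against CMP with 1 mouse left out, Hoxa5 ran from -0.22 to 0.10, Hoxa10 from -0.11 to 0.38, Hoxb4 from -0.46 to 0.0062 and Pbx3 from -0.0883 to 0.0033. In MEP against CMP, Hoxa9 ran from -0.0804 to 0.18 and Hoxb4 from -0.20 to 0.0651. In GMP against MEP, Hoxa7 ran from -0.30 to 0.0062 and Hoxb4 from -0.28 to 0.0667.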
